A study of Mus musculus with 3 samples.

Results

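The genes described here are the mouse genes Bcl2, Bcl2l1, Mcl1, Bax, Bak1, Bid, Bad, Bbc3, Pmaip1 and Bcl2l11, chosen by symbol as the core survival and death genes of the Bcl2 family, 10 of the 49120 symbols in the files. All 10 were found, each as 1 Ensembl gene row. RNA was sequenced from 3 cell populations sorted from the back skin of C57BL/6 mice. All the animals were wild type, aged 7 weeks and in second telogen, the second resting phase of the hair cycle, and the cells came from the epidermis. Suprabasal bulge stem cells (S) were sorted as CD34+/Itga6Low, basal bulge stem cells (B) as CD34+/Itga6High, and non-stem cells (N) as CD34-. The bulge is the niche of the hair follicle's resting stem cells, and N takes in every other cell that left the epidermis in the preparation, so it is a mixture. RNA of 4 mice was pooled into 1 library per population, so n was 1 per group, no test was possible, and every difference describes these libraries alone.

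Bcl2 family proteins decide whether the outer mitochondrial membrane is opened, the step that releases cytochrome c and starts the caspases of intrinsic apoptosis. Survival proteins (Bcl2, Bcl-xL from Bcl2l1, and Mcl1) hold in check the effectors Bax and Bak (from Bak1), which form the pores. The BH3-only proteins Bid, Bad, Puma (from Bbc3), Noxa (from Pmaip1) and Bim (from Bcl2l11) carry stress signals to them by placing a short helix, the BH3 domain, into a groove of the survival proteins or onto the effectors. In mouse skin the lower follicle regresses by apoptosis in each hair cycle, and bulge stem cells are known to withstand it better than other epidermal cells after DNA damage.

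Members of each class carry a BH3 core, and its coding bases are shown for 9 of the members to let the classes be compared. Each line runs 5′ to 3′ on the coding strand, read from GENCODE M21 transcripts on mm10, and capitals mark the 6 codons of the core. The core searched was a leucine codon, 3 codons of any kind, a codon for glycine, alanine or serine, and an aspartate codon.
Bcl2 (survival): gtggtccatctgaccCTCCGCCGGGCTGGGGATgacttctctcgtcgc
Bcl2l1 (survival): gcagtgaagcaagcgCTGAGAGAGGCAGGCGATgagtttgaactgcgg
Mcl1 (survival): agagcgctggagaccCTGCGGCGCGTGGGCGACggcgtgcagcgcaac
Bax (effector): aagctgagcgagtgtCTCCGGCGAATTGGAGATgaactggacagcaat
Bak1 (effector): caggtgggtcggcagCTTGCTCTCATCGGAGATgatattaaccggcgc
Bid (BH3-only): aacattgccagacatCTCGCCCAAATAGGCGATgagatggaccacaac
Bad (BH3-only): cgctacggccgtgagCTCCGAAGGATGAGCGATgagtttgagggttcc
Bbc3 (BH3-only): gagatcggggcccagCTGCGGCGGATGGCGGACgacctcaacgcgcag
Bcl2l11 (BH3-only): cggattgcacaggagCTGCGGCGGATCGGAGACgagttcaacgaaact

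The core occurred once in the coding sequence of each of these 9 genes and in 2 places in Pmaip1. It is a loose pattern, present in 34.6% of the 20319 genes with a consensus coding sequence, and a match is a description only. The fifth codon of the core reads glycine in 7 of the 9 lines, serine in Bad and alanine in Bbc3. The stretches lie at chr1:106712569-106712616 for Bcl2, chr2:152829691-152829738 for Bcl2l1, chr3:95659421-95659468 for Mcl1, chr7:45465991-45466038 for Bax, chr17:27022525-27022572 for Bak1, chr6:120897283-120897330 for Bid, chr19:6950777-6950824 for Bad, chr7:16313758-16313805 for Bbc3 and chr2:128147135-128147182 for Bcl2l11. Each falls within 1 coding exon, and Bcl2, Bcl2l1, Bax, Bak1 and Bid are on the minus strand.

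The values are FPKM (fragments counted for a gene, per kilobase of its transcript and per M, or mega, of the library's mapped fragments), divided by a factor per library and called scaled FPKM or level. Depth, read from the steps between low values, was 31.3 M fragments in S, 32.7 M in B and 35.3 M in N. The bulge markers Cd34, Lgr5, Lhx2, Sox9 and Postn were all at least 2-fold higher in S and in B than in N. For Cd34 this follows from the sort, which used CD34. The keratinocyte genes Krt5, Krt15 and Trp63 were at 107 or above in all 3 libraries. Krt14 was at 12.7 in S, 277 in B and 588 in N. The S library holds a single mitochondrial tRNA value, mt-Tl1, of 1686680 deposited FPKM, so libraries were not scaled by their full total.

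Intervals beside a level are exact 95% Poisson intervals on the fragments that the level stands for at the shortest consensus coding transcript. They do not cover amplification, differences between mice or sorting, only counting error. A gene was called higher or lower where the log2 ratio of scaled FPKM plus 1 reached 1 in either direction, among the 11575 genes whose mean level was 1 or more. Of the 10 members, 9 passed that filter, and Bbc3 did not. In bulk samples, fewer cells of a type and less RNA per cell cannot be told apart.

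The largest log2 ratio among the measured members was that of an effector. Bak1 was lower in both bulge populations than in N, while Bax, its partner, was at close levels in all 3. Bcl2 was higher in S than in N. Pmaip1 was low in both bulge populations and Bcl2l11 low in B, but neither reached the called size. The remaining members differed by less than 2-fold between any pair of libraries, apart from Bbc3, whose levels were too low to be called.

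**Figure D1:**
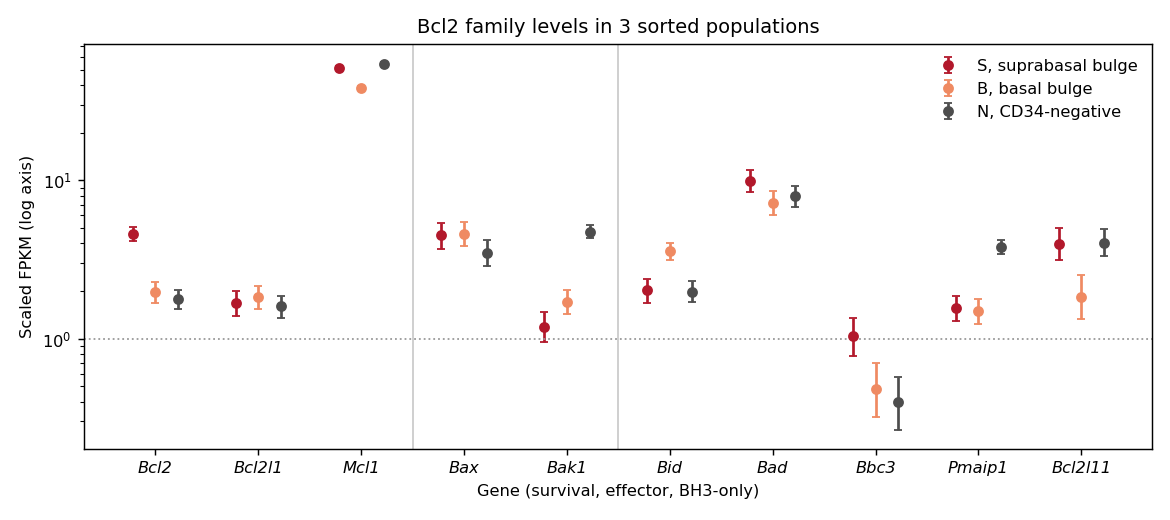
Levels of the 10 members in scaled FPKM on a log axis, in S (suprabasal bulge), B (basal bulge) and N (CD34-negative), 1 library each. Bars are 95% Poisson intervals for counting error only, and the dotted line marks a level of 1. Mcl1 stands above all other members in every library, Bcl2 is highest in S, and Bak1 and Pmaip1 are highest in N.

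Among the survival genes, Bcl2, the founding member, which guards the mitochondrial and endoplasmic reticulum membranes, is on chromosome 1 (106538178 to 106714274, mm10, ENSMUSG00000057329). Its level was 4.60 in S (interval 4.15 to 5.09), 1.96 in B (1.69 to 2.28) and 1.77 in N (1.53 to 2.03). The S library stood above the other 2, whose intervals overlapped. The log2 ratio was 1.02 for S over N, just past the called size, and 0.92 for S over B, just short of it. Without a pseudocount the level in S was 2.60-fold that in N and 2.34-fold that in B. The log2 ratio for B over N was 0.10. Scaling over protein-coding genes with a mean of at least 5 put the S over N log2 ratio at 0.99, and the deposited values put it at 0.83, so the call rests on the scaling while the direction did not change.

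Mcl1, a short-lived survival protein that is made and degraded quickly, is on chromosome 3 (95658788 to 95663176, ENSMUSG00000038612). Its level was 51.0 in S (49.6 to 52.4), 38.2 in B (37.0 to 39.3) and 54.3 in N (53.04 to 55.5). It was the most abundant member in each library, at the 94.9th percentile of measured genes in S, the 93.6th in B and the 94.8th in N. The level in B was the lowest of the 3, with a log2 ratio of -0.50 for B over N and 0.41 for S over B. For S over N the log2 ratio was -0.09. With all libraries scaled to the same summed FPKM without mitochondrial and ribosomal RNA genes, both log2 ratios against N had the other sign. They were 0.19 for B over N and 0.42 for S over N. That scaling moved the median of all measured genes to 0.52 for B over N and 0.44 for S over N. The 3 intervals did not overlap, since they are narrow at this level, but no ratio passed the called size.

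Bcl2l1 encodes Bcl-xL, a survival protein made by many adult cell types, and lies on chromosome 2 (152780668 to 152831728, ENSMUSG00000007659). Its level was 1.67 in S (1.39 to 2.01), 1.83 in B (1.54 to 2.16) and 1.60 in N (1.35 to 1.87). The 3 intervals overlapped, and no ratio reached the called size. Splice forms, which for this gene include one with the opposite action, cannot be read from values per gene.

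Of the summed level of the 3 survival genes, Mcl1 held 89.0% in S, 91.0% in B and 94.2% in N. Bcl2 held 8.04% in S, 4.68% in B and 3.07% in N. The level of Bcl2 was 2.75 times that of Bcl2l1 in S, 1.07 times in B and 1.11 times in N. These shares and ratios are taken inside a library and do not depend on the scaling between libraries.

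Among the effectors, Bak1 resides on the mitochondrial outer membrane and is found on chromosome 17 (27019810 to 27029009, ENSMUSG00000057789). Its level was 1.19 in S (0.947 to 1.48), 1.70 in B (1.42 to 2.02) and 4.73 in N (4.30 to 5.19). Both bulge libraries lay below N with no overlap of intervals, and the intervals of S and B overlapped. The log2 ratio was -1.39 for S over N and -1.08 for B over N, and both were called lower. Without a pseudocount, the level in N was 3.97-fold that in S and 2.78-fold that in B. With the scaling to the same summed FPKM, the log2 ratios were -0.998 for S over N and -0.56 for B over N, both short of the called size. That scaling moved the median of all measured genes to 0.44 for S over N and 0.52 for B over N.

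Bax, which rests in the cytosol until it moves to mitochondria, is on chromosome 7 (45461697 to 45466898, ENSMUSG00000003873). Its level was 4.49 in S (3.69 to 5.39), 4.60 in B (3.84 to 5.48) and 3.48 in N (2.89 to 4.18). The 3 intervals overlapped pairwise. The log2 ratios were 0.29 for S over N, 0.32 for B over N and -0.03 for S over B.

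The balance of Bax and Bak1 can be read inside each library. The level of Bax was 3.77 times that of Bak1 in S, 2.71 times in B and 0.735 times in N. Bak1 made up 20.96% of the summed level of Bax and Bak1 in S, 27.0% in B and 57.6% in N. That sum was 5.68 in S, 6.31 in B and 8.21 in N. It leaves out Bok, an effector relative described below, which was at 28.6 in S, 21.9 in B and 13.1 in N. Bok was thus highest in S, the reverse of the order of that sum.

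**Figure D2:**
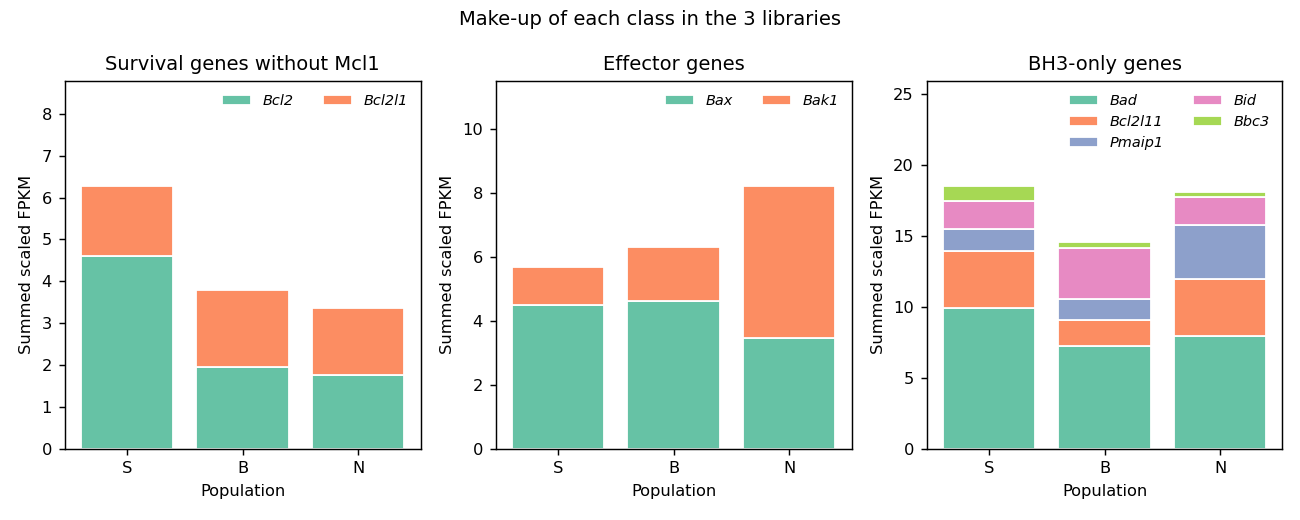
Summed scaled FPKM of the member survival genes without Mcl1, the effectors Bax and Bak1 and the member BH3-only genes in S, B and N. Each gene is a segment of the bar, and relatives such as Bok are left out. The Bcl2 segment is tallest in S (4.60), the Bak1 segment is tallest in N (4.73), and the Bid segment is tallest in B (3.57).

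Among the BH3-only genes, Bad, which binds Bcl2 and Bcl-xL and is kept inactive by growth factor signalling, was the most abundant. It is on chromosome 19 (6941861 to 6951898, ENSMUSG00000024959). Its level was 9.94 in S (8.44 to 11.6), 7.23 in B (6.01 to 8.60) and 7.93 in N (6.77 to 9.23). The intervals of each pair overlapped at the shortest transcript of 0.54 kb, where the levels stand for 155 fragments in S, 125 in B and 167 in N. At the longest, 1.45 kb, they stand for 417, 337 and 449, so the intervals would be narrower. The overlap thus depends on the length taken. The log2 ratios were 0.29 for S over N, -0.12 for B over N and 0.41 for S over B. Transcript lengths were taken from GENCODE M21, where 8 of the 10 members have the deposited gene position. Bad and Pmaip1 do not, so the fragments and intervals of both are less certain.

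Bcl2l11 encodes Bim, which binds all survival proteins and is transcribed when growth factors are withdrawn, and lies on chromosome 2 (128126038 to 128162547, ENSMUSG00000027381). Its level was 3.97 in S (3.13 to 4.96), 1.84 in B (1.33 to 2.53) and 4.03 in N (3.31 to 4.89). The B library lay below both others with no overlap of intervals, while S and N overlapped. The log2 ratio was -0.83 for B over N, 0.81 for S over B and -0.02 for S over N, so none was called. Without a pseudocount the level in S was 2.16-fold that in B, and the level in N was 2.19-fold that in B.

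Pmaip1 encodes Noxa, a p53 target that binds Mcl1, and is on chromosome 18 (ENSMUSG00000024521). Its level was 1.55 in S (1.29 to 1.85), 1.49 in B (1.24 to 1.77) and 3.79 in N (3.43 to 4.18). Both bulge libraries lay below N, and their own intervals overlapped. The log2 ratio was -0.91 for S over N, -0.94 for B over N and 0.03 for S over B, just short of the called size against N. Without a pseudocount the level in N was 2.45-fold that in S and 2.54-fold that in B. The level of Mcl1 was 32.9 times that of Pmaip1 in S, 25.6 times in B and 14.3 times in N.

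Bid, which links death receptors to mitochondria once caspase-8 has cut it, is on chromosome 6 (120891930 to 120916853, ENSMUSG00000004446). Its level was 2.02 in S (1.68 to 2.39), 3.57 in B (3.13 to 4.03) and 1.98 in N (1.69 to 2.30). The B library stood above the other 2, which overlapped. The log2 ratio was 0.62 for B over N, -0.60 for S over B and 0.02 for S over N. With the scaling to the same summed FPKM the first was 1.11, past the called size. That scaling moved the median of all measured genes to 0.52 for B over N, and 18.6% of all genes were then higher.

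Bbc3 encodes Puma, another p53 target, and is on chromosome 7 (16308393 to 16318205, ENSMUSG00000002083). Its level was 1.03 in S (0.775 to 1.35), 0.483 in B (0.320 to 0.696) and 0.397 in N (0.263 to 0.572). These levels stand for 54 fragments in S, 28 in B and 28 in N at a transcript of 1.81 kb. The interval of S lay above both others, and the mean level of 0.638 kept the gene out of the counts.

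The make-up of the BH3-only class can also be read inside a library. Bid held 10.9% of its summed level in S, 24.4% in B and 10.9% in N. Pmaip1 held 8.38% in S, 10.2% in B and 20.9% in N. Bcl2l11 held 21.5% in S, 12.6% in B and 22.2% in N.

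In the promoters of Bcl2l11 and Bbc3, both known FOXO3 targets in mouse cells, the FOXO-type motif GTAAACA was found on 1 strand or the other. The stretches are shown because Foxo3 is among the regulators measured here, with the motif in capitals. RefSeq sequences (GRCm38.p6) were at hand for 9 members, in 15 promoter windows that run from 250 bases before to 50 after a transcription start.
Bcl2l11, chr2:128125800-128125828: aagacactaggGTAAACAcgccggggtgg
Bbc3, chr7:16310083-16310111: tctggcgggttTGTTTACaaacaatgggg

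The motif stands 221 bases before the first base of Bcl2l11. In Bbc3 it stands, as its reverse complement TGTTTAC, 161 bases before a RefSeq start that lies inside the gene span given above. It was in 2 of the 15 member windows and in 3.65% of all 32851 windows, counting either strand. Foxo3 was at 19.0 in S, 15.8 in B and 10.6 in N, a log2 ratio of 0.79 for S over N and 0.53 for B over N, and Foxo1 at 10.7 in S, 10.1 in B and 12.4 in N. Neither was called, and a match of letters is not a measure of binding.

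The counts of members past the called size were small. For B over N, 0 of 9 members were higher and 1, Bak1, was lower, where 7.27% of all genes tested were higher and 7.10% lower. For S over N, 1 was higher (Bcl2) and 1 lower (Bak1), where 9.56% of all genes were higher and 10.9% lower. For S over B, 0 of 9 were past the size in either direction, where 9.81% of all genes were, 3.89% higher and 5.93% lower. The members' median log2 ratio was -0.12 for B over N, 0.02 for S over N and 0.03 for S over B, beside medians over all measured genes of -0.04, 0.02 and 0.06. With 9 genes, each count is near what the share of all genes would give. The comparisons B over N and S over N share the N library, so Bak1 in both is not an independent observation.

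**Figure D3:**
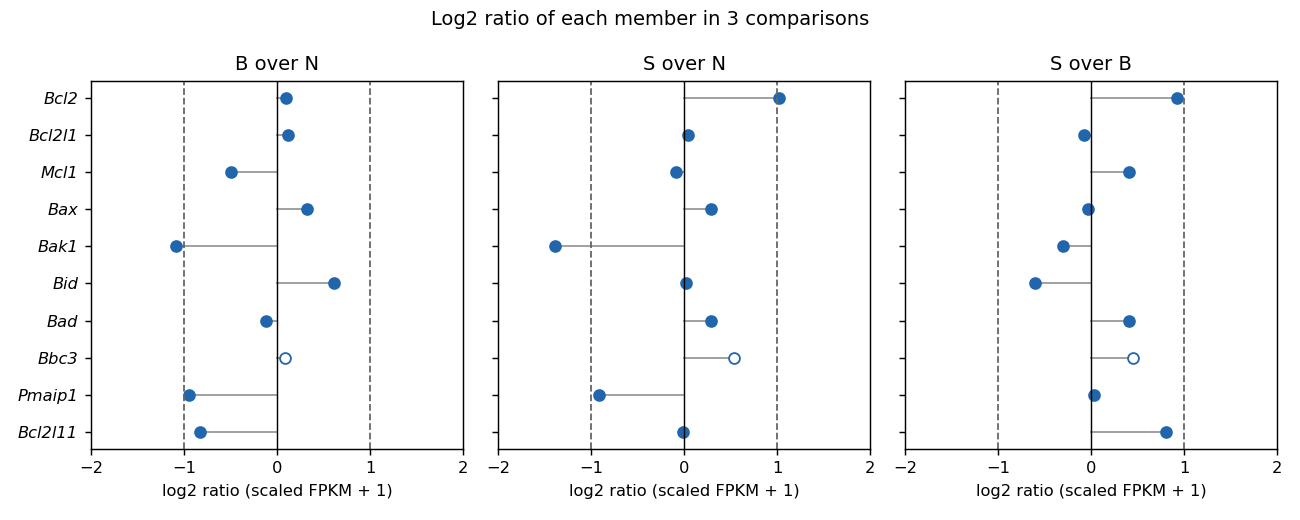
Log2 ratio of scaled FPKM plus 1 for each member in B over N, S over N and S over B, with dashed lines at the called size. The open circles are Bbc3, which was below the mean level of 1. Bak1 lies beyond the line on the lower side in both comparisons with N (-1.08 and -1.39), and Bcl2 beyond it on the higher side in S over N alone (1.02).

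A pseudocount of 0.1 shrinks the ratios of low genes less. With it, B had lower levels of Bak1, Pmaip1 and Bcl2l11 than N and higher levels of 0 members, where 10.1% of all genes were lower and 10.8% higher. Bcl2 was higher and Bak1 and Pmaip1 lower in S than in N, where 13.6% of all genes were higher and 13.9% lower. Bcl2 and Bcl2l11 were higher in S than in B and 0 lower, where 5.6% of all genes were higher and 9.28% lower.

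Sums over each class give proportions among the 10 members alone, not the whole family. The survival genes summed to 57.2 in S, 42.0 in B and 57.7 in N, and the BH3-only genes to 18.5 in S, 14.6 in B and 18.1 in N. The summed survival level was 2.37 times that of the 7 death genes in S, 2.01 times in B and 2.19 times in N. Among the members, Mcl1 sets these values. Without it the ratio was 0.259 in S, 0.181 in B and 0.128 in N. The sums leave out the relatives described below. Among these, the effector relative Bok was at 28.6 in S, 21.9 in B and 13.1 in N. The survival gene Bcl2l2 was at 3.39 in S, 3.03 in B and 2.79 in N. Ratios that include them were not computed, and their order over the libraries could differ. Within single pairs, Bcl2 was at 1.16 times the level of Bcl2l11 in S, 1.07 times in B and 0.439 times in N.

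The order of levels also differed. In S it ran from Mcl1 through Bad, Bcl2, Bax, Bcl2l11, Bid, Bcl2l1, Pmaip1 and Bak1 to Bbc3, and in N from Mcl1 through Bad, Bak1, Bcl2l11, Pmaip1, Bax, Bid, Bcl2 and Bcl2l1 to Bbc3. In B, Bax and Bid followed Bad. Neighbours such as Bcl2 and Bax in S (4.60 and 4.49) or Bcl2 and Bcl2l1 in N (1.77 and 1.60) had overlapping intervals.

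The genes nearest to Bcl2 in their pattern over the 3 libraries, among 5375 protein-coding genes with a mean level of 5 or more, were mt-Nd6, Ctps2 and Plekhn1. For Bak1 they were Osgin2, Rev1 and Gstm1. Distances between the centred log2 values ran from 0.02 to 0.07. With 3 points per gene many patterns lie close together.

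Of 15 further relatives of the family, 6 were measured, and Bok alone passed the called size. For this count and those of the lists below, 7.27% of all genes were higher and 7.10% lower for B over N. The shares were 9.56% and 10.9% for S over N, and 3.89% and 5.93% for S over B. In lists this short, 1 called gene is not a departure from these shares. Bok, an effector relative of Bax and Bak, was at 28.6 in S, 21.9 in B and 13.1 in N, with a log2 ratio of 1.07 for S over N and 0.70 for B over N. It was far above Bax and Bak1 in every library. The survival gene Bcl2l2 (Bcl-w) was at 3.39 in S, 3.03 in B and 2.79 in N. The mitophagy receptor gene Bcl2l13 was at 2.55 in S, 2.75 in B and 5.55 in N. Its exons share 628 bp with those of Bid on the other strand.

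The other measured relatives were Bnip3 (10.3 in S, 10.3 in B and 12.5 in N) and Bnip3l (23.4 in S, 23.1 in B and 24.7 in N), both mitophagy receptors, and Bcl2l12 (1.64 in S, 1.09 in B and 2.33 in N). None of these was called. Below the mean of 1 stood Bmf, a BH3-only gene, at 1.43 in S, 0.612 in B and 0.297 in N. Bcl2l14 and Bcl2l15 also stood below it, with Bcl2l15 at 0.0662 in S, 0.725 in B and 1.89 in N. Bik was listed at 0 in B and N and at 0.558 in S. Bcl2a1a and Bcl2l10 were listed at 0 in all 3 libraries, and Bcl2a1b, Bcl2a1d and Hrk were at most 0.187. The Bcl2a1 genes are near-identical copies, so their values are uncertain.

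The next list held apoptosome and caspase genes, some of which act downstream of the mitochondria. Of 13 such genes, 11 were measured, and 0 were past the called size for B over N and S over B. For S over N 1 was lower, where 10.9% of all genes were. That was Dffa, the inhibitor of the caspase-activated DNase, at 2.11 in S, 2.90 in B and 6.26 in N. Cycs, which encodes cytochrome c, was at 10.4 in S, 10.6 in B and 10.2 in N. Genes named by the rule that were not called were Casp2 (11.7 in S, 9.77 in B and 10.01 in N), Diablo (12.8 in S, 10.9 in B and 13.3 in N) and Aifm1 (6.28 in S, 6.34 in B and 4.98 in N). Among those outside the naming rule, Apaf1, the scaffold of the apoptosome, was at 0.877 in S, 1.80 in B and 1.32 in N, and the caspase gene Casp6 at 3.53 in S, 3.08 in B and 1.97 in N. The list's median log2 ratio was 0.05 for B over N and -0.01 for S over N.

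Of the 5 measured inhibitor of apoptosis genes, 2 were lower in both bulge populations than in N. Of all genes, 7.10% were lower for B over N and 10.9% for S over N. Birc3, an inhibitor of apoptosis induced by NF-kappaB, was at 6.93 in S, 9.59 in B and 22.04 in N, with a log2 ratio of -1.54 for S over N and -1.12 for B over N. Birc5, which encodes survivin and is best known from mitosis, was at 0.0981 in S, 1.69 in B and 6.83 in N, and was also lower in S than in B (-1.29). Xiap, the direct caspase inhibitor, was at 6.96 in S, 6.79 in B and 5.16 in N, and Birc6 at 26.7 in S, 25.5 in B and 31.9 in N, and neither was called.

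**Figure D4:**
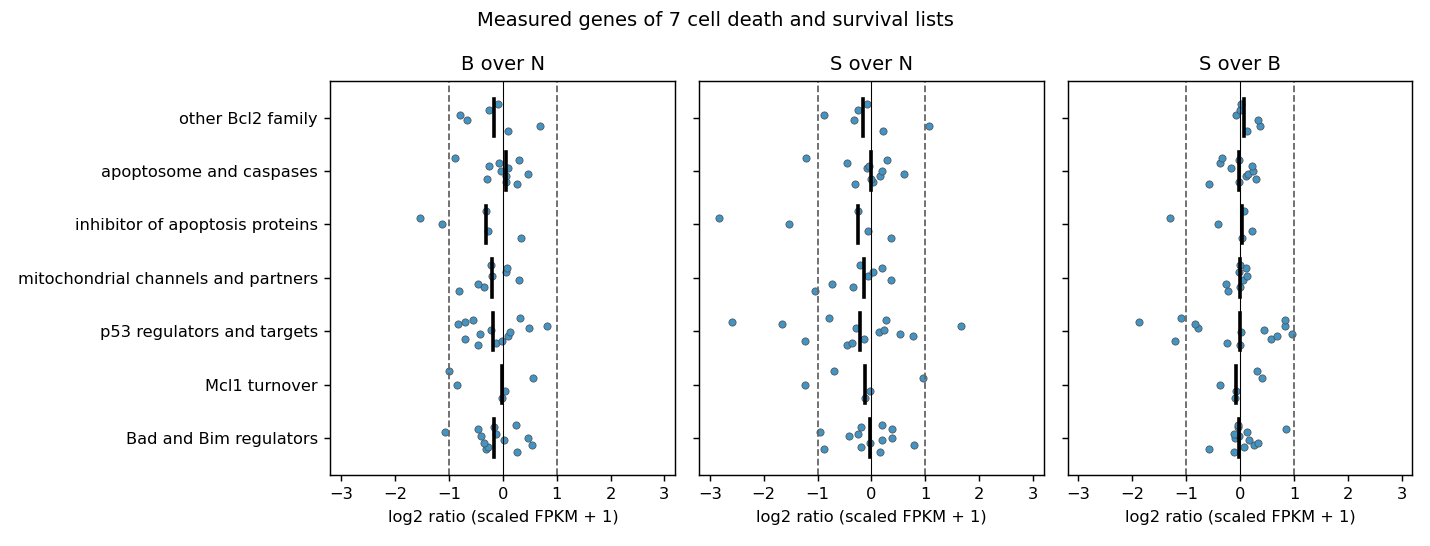
Log2 ratio of each measured gene of 7 lists of cell death and survival genes in B over N, S over N and S over B. Black bars are list medians and dashed lines mark the called size. Most points lie between the lines, and the points farthest out are Sesn1 on the higher side (1.65 in S over N) and Birc5 on the lower side (-2.83 in S over N).

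Of 8 genes for mitochondrial channels and partners, 1 was lower in S than in N and 0 were called in the other comparisons. Vdac1, the main channel of the outer membrane, was at 44.1 in S, 51.8 in B and 92.1 in N. Vdac2, which holds Bak in the membrane, was at 29.4 in S, 29.2 in B and 37.6 in N. Vdac3 (13.8 in S, 16.8 in B and 23.5 in N) and Slc25a4 (20.1 in S, 19.3 in B and 15.5 in N) were not called.

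Among 14 p53 regulators and targets, all measured, 0 were called for B over N, 1 was higher and 3 lower for S over N, and 3 were lower for S over B. Sesn1, a stress-induced sestrin, was at 83.4 in S, 46.2 in B and 25.8 in N. Fas, the death receptor, was at 0.176 in S, 3.33 in B and 6.06 in N. Cdkn1a, the p21 cell cycle inhibitor, was at 184 in S, 93.9 in B and 126 in N and was not called. Perp, a p53 target that encodes a desmosome protein, was at 1472 in S, 830 in B and 1227 in N and was not called.

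A few more are given that lie outside the naming rule and were chosen with their values known. Trp73, a p53 relative, was at 0.111 in S, 1.56 in B and 1.60 in N. Sesn2 was at 0.641 in S, 1.94 in B and 4.21 in N. Trp53 itself was at 16.6 in S, 16.7 in B and 23.2 in N. Aen, a p53-induced nuclease gene, was at 0.741 in S, 2.72 in B and 1.99 in N, and was the third gene lower in S than in B, with Fas and Trp73.

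Of 6 genes for Mcl1 turnover, 5 were measured, 1 was lower for S over N and 0 were called elsewhere. Fbxw7, a ubiquitin ligase subunit that marks Mcl1 for degradation, was at 3.47 in S, 4.78 in B and 9.48 in N. The ligase gene Huwe1 (37.8 in S, 40.5 in B and 41.1 in N) and the deubiquitinase gene Usp9x (23.3 in S, 24.5 in B and 23.8 in N) were at close levels. March5, a mitochondrial ligase gene, was at 14.5 in S, 11.5 in B and 24.0 in N and was not called.

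Of 13 regulators of Bad and Bim, all measured, 1 was lower for B over N, and 0 were called for S over N and S over B. That was Pim1. Akt2, a kinase of the family that phosphorylates Bad, was at 9.83 in S, 15.1 in B and 18.9 in N and was not called. Ywhaq, which encodes a 14-3-3 protein of the kind that binds phosphorylated Bad, was at 60.2 in S, 64.0 in B and 45.7 in N and was not called. Pim1, another kinase of Bad, lies outside the naming rule and was singled out once its values were known, at 2.05 in S, 1.80 in B and 4.90 in N. Pim3 was at 8.33 in S, 4.17 in B and 6.15 in N.

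Markers of other cell types were low, with exceptions that move with the populations. Of 8 genes for T and NK cells, which express Bcl2, Thy1 alone was measured, at 0.673 in S, 4.99 in B and 18.3 in N, and the summed level was 2.47 in S, 6.15 in B and 20.4 in N. Thy1 made up most of that sum in B and in N. Of the other 7 genes, Cd3d alone had the same order of the libraries. Cd3e was at 0.487 in S, 0.292 in B and 1.18 in N, Cd3g at 0.311 in S, 0.482 in B and 0.106 in N, Ptprc at 0.480 in S, 0.125 in B and 0.562 in N, and Nkg7 at 0.374 in S, 0.168 in B and 0.0341 in N. Cd2, Cd3d and Trdc were at most 0.139, with Cd3d listed at 0 in S and Cd2 in B. Of 8 Langerhans and myeloid cell genes, 4 were measured, and the sum was 18.4 in S, 13.7 in B and 34.1 in N. The macrophage marker Cd68 was at 6.02 in S, 2.11 in B and 1.69 in N. The class II gene H2-Aa was at 4.51 in S, 4.81 in B and 13.5 in N. H2-Ab1 (2.54 in S, 3.30 in B and 12.2 in N) and Cd74 (3.99, 3.03 and 6.19) were also highest in N. Below the mean of 1, Cd207 was at 0.343 in S, 0.220 in B and 0.126 in N, and Lyz2 at 0.756, 0.0816 and 0.178. Itgam was at 0.111 in S, 0.0665 in B and 0.0600 in N, and Csf1r at 0.0984, 0.0644 and 0.106. Cd207, Lyz2, Itgam and Cd68 were thus highest in S. The part of such cells in the lower Bak1, Pmaip1 and Birc3 levels of the bulge libraries was not tested.

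Of 8 melanocyte genes, Mitf alone was measured, at 34.4 in S, 16.4 in B and 2.08 in N. The pigment gene Dct had a level of 0.475 in S and 0.513 in B, and was listed at 0 in N, Tyr was at most 0.250, and Mlana and Sox10 were listed at 0 in S. Pmel was at 0.321 in S, 0.213 in B and 0.0622 in N, and Kit at 0.0775 in S, 0.0299 in B and 0.00831 in N. The summed level of the list was 35.5 in S, 17.7 in B and 2.41 in N, and Mitf made up most of it in each library. Of the other genes, Pmel and Kit alone had the same order of the libraries as Mitf. The part of melanocytes in the Bcl2 levels was not tested. Of 7 fibroblast genes, Col1a2 alone was measured, at 1.34 in S, 1.77 in B and 0.103 in N, and the summed level was 2.60 in S, 2.11 in B and 0.580 in N. Of the 4 endothelial genes 0 were measured, with a sum of at most 2.59, and likewise of the 4 mast cell genes, with a sum of at most 1.05.

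Some member exons overlap those of other genes, and the sources used here do not state that reads were counted by strand. Bcl2 shares 558 bp with the antisense gene D630008O14Rik (0.418 in S, 0.201 in B and 0.0278 in N). Bad shares 524 bp with Gpr137 (2.99 in S, 2.57 in B and 1.64 in N), and Bak1 shares 437 bp with Ggnbp1 (0.753 in S, 1.65 in B and 0.692 in N). Bax shares 192 bp with Gm45808 on the same strand, which was listed at 0 in S and B. Reads from these overlaps could be split between the genes, so part of each level is uncertain.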

How the data were processed

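Per the file headers, the authors deposited FPKM values per Ensembl gene for S and N. The B column is named for its population, and its unit was taken from its values. The submitters' processing notes list the build mm10 and the tools TopHat2 2.0.12, Cufflinks 2.1.1 and DESeq2, without saying what each was used for. The annotation, read filters and strand setting were not given in the sources used here. Per the labels' protocols, epidermis was freed with thermolysin (0.25 mg/ml for 1 hour), and the pooled RNA was amplified from poly(T) and random primers and sequenced with paired 75 bp reads.

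Each file held 49452 rows. Rows of 1 symbol were summed and divided by median-of-ratios factors over 18559 genes above 0 in all libraries (0.923 for S, 0.981 for B and 1.10 for N). Depth was the number of fragments for which most low values of 1-exon genes of at least 3000 bp came out whole (95.7% to 97.9% within 0.1, against 20.0% by chance). Ratios used a pseudocount of 1 and a mean of at least 1, in 3 comparisons, and understate differences of low genes. The members, lists and rules were chosen with earlier results of these data known. Of 2 pathway lists, 1 gene each is not reported here and was left out of counts and medians. Every member was named. Of the other cell death and survival lists, up to 4 measured genes with the largest ratio and a level of at least 5 were named, and all further Bcl2 relatives. The label files give 1 sample per group, so replicates could not be compared. Python 3.11.15 with pandas 2.3.3, numpy 2.4.6 and scipy 1.17.1 was used.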

Additional observations from a re-analysis of the deposited data

How the results depend on the processing

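The 30 member ratios were recomputed under up to 8 other settings, 216 values in all, since a mean of at least 5 left a value for Mcl1 and Bad alone. No called ratio changed sign, and 8 ratios, none of them called, did so under at least 1 setting. With the values as deposited, the counts were 2 lower for B over N, and 0 higher and 2 lower for S over N. The median over all genes was -0.18 in both. Of all genes, 9.46% were lower for B over N, and 7.39% higher and 14.5% lower for S over N. With the same summed FPKM without mitochondrial and ribosomal RNA genes, they were 1 higher and 0 lower for B over N and 0 lower for S over N. That scaling moved the median of all genes to 0.52 for B over N and 0.44 for S over N. It raised the share of genes higher in B than in N to 18.6%, with 2.73% lower. For S over N, 6.61% of all genes were lower. Factors over protein-coding genes with a mean of at least 5 left 0 members higher for S over N, where 9.23% of all genes were. A pseudocount of 0.1 gave 3 lower for B over N, 2 lower for S over N and 2 higher for S over B. The shares of all genes there were 10.1%, 13.9% and 5.6%. A pseudocount of 5 left 0 lower for B over N, and 0 higher and 0 lower for S over N. Of all genes, 3.02%, 3.86% and 4.8% were called there. A mean of at least 5 kept 2 members and left the same counts at 0, since fewer genes were tested. The shares of all genes were then 7.15%, 9.32% and 10.4%. Removing the filter changed no count. The within-library ratios did not move with scaling. No paired analysis was possible because each group has 1 library. The cause of the other changes was not tested. Levels near 1 rest on few fragments (28 for Bbc3 in B and in N), which limits what can be seen.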
